A study of Mus musculus with 6 samples.

Results

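Matrix metalloproteinases are zinc-dependent proteases that cut collagen, elastin and other matrix proteins. They are made as inactive proenzymes, are activated by other proteases and are held in check by tissue inhibitors, so that a transcript level is not a measure of enzyme activity. In the cornea they are best known for breaking down and remodelling the collagen stroma and the epithelial basement membrane after injury. The transcripts of 10 of them were examined here: the collagenases Mmp13 and Mmp8, the gelatinases Mmp2 and Mmp9, the stromelysins Mmp3, Mmp10 and Mmp11, the metalloelastase Mmp12, the membrane-anchored Mmp14 and the secreted Mmp19. They were chosen by symbol, with earlier results of these data known, and each matched 1 of the 28539 loci of the deposited gene table.

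RNA-seq of polyadenylated transcripts had been made from whole corneas of female C57BL/6J mice aged 6 to 8 weeks. There were 3 groups of 2 samples. The day 0 group was uninjured, and the day 5 and day 15 groups were collected that long after an alkali burn, a caustic injury that is followed by inflammation and vessel ingrowth. The labels name no genotype, transgene or drug. Whether a group's 2 samples came from separate mice, and how many corneas were in each, is not stated either.

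Levels are in FPKM (fragment numbers corrected for transcript length and library size), which the authors gave once per group, pooled over its samples. The range in brackets after an FPKM is the authors' interval for that group, whose level the table does not state. With 0 columns for single samples, no spread between corneas could be had and the read depth is unknown, so the comparisons are descriptions without tests or p-values. Groups were called apart at a locus under 4 conditions: both estimates had the status OK, the larger FPKM reached 1, the log2 ratio of (FPKM + 1) reached 1 in either direction, and there was a gap between the authors' intervals. Log2 ratios below are on this scale, which understates differences of low genes, and folds are plain ratios of FPKM. All 30 estimates of the 10 genes had a status of OK.

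At day 0 the stroma marker Kera stood at 516 FPKM and Aldh3a1, the main soluble protein gene of the mouse cornea, at 9149.9 FPKM. Krt12, the keratin of corneal epithelium, had no usable day 0 estimate. Lens and muscle transcripts were present as well, with 158 FPKM of Cryaa and 430.0 FPKM of Myl1 at day 0. The tissue was measured whole, so a change in the number of cells that express a gene and a change in transcript per cell cannot be told apart.

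All 10 metalloproteinases had a higher FPKM at day 5 than at day 0, and 6 of them were higher and apart: Mmp13, Mmp12, Mmp9, Mmp3, Mmp14 and Mmp8. Over all 15576 loci compared, 3.42% were higher and apart at day 5, 2.5% were lower and apart, and 5.92% were apart in either direction. At day 15 all 10 were again above day 0, and 3 were higher and apart (Mmp13, Mmp12 and Mmp9), against 2.91% of 15186 loci higher and apart, 1.81% lower and apart and 4.72% in either direction. None of the 10 was lower and apart in either comparison. Mmp8, Mmp9, Mmp10, Mmp12 and Mmp13 were below an FPKM of 1 at day 0 and could not have been called lower. Nor could Mmp11 and Mmp19, whose day 0 intervals reached 0. Only Mmp2, Mmp3 and Mmp14 could have been. The median log2 ratio of the 10 was 1.74 at day 5 and 1.21 at day 15, both against day 0, where the median of all loci compared was -0.09 and -0.10. Between the 2 injured groups the family divided: 7 genes had a lower FPKM at day 15 than at day 5 and 3 a higher one. Their median log2 ratio was -0.39, and 0 of 10 were apart. In that comparison 0.395% of 14683 loci were higher and apart, 0.388% lower and apart and 0.783% in either direction. The day 5 and day 15 ratios to day 0 share the same uninjured corneas and are not independent of each other.

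**Figure D1:**
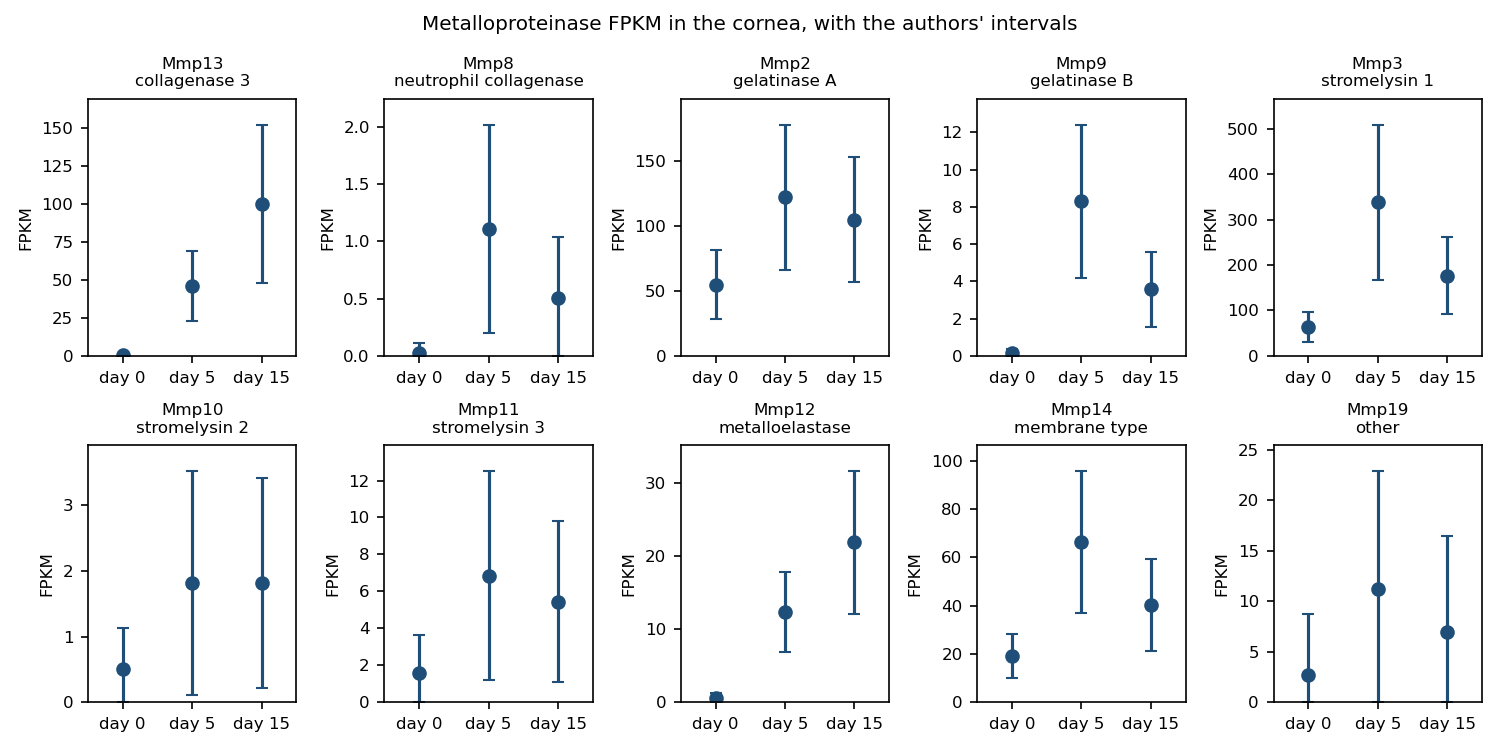
FPKM of each of the 10 metalloproteinases at day 0, day 5 and day 15, on a linear axis of its own for each gene. Points are the authors' pooled value for a group and bars the authors' interval. Mmp13 and Mmp12 are highest at day 15, Mmp10 is nearly level between day 5 and day 15, and the other 7 are highest at day 5.

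Mmp13, collagenase 3, cuts fibrillar collagen and is the main interstitial collagenase of the mouse. Its FPKM was 0.551 (0 to 1.29) at day 0, 45.9 (22.7 to 69.1) at day 5 and 99.95 (48.0 to 152) at day 15. The uninjured interval lies far below both injured ones, and the 2 injured intervals overlap. Mmp13 was 83.2-fold higher at day 5 and 181-fold higher at day 15 than at day 0, with log2 ratios of 4.92 and 6.02. Because the day 0 interval reaches 0, these folds are imprecise, and the nearest bounds of the intervals differ by 17.6-fold at day 5 and 37.2-fold at day 15. Ranked from the highest log2 ratio, Mmp13 stood at place 25 of 15576 loci at day 5 and at place 9 of 15186 at day 15. Between the injured groups it was 2.18-fold higher at day 15 than at day 5, not apart. Mmp13 lies on chromosome 9 (7272514 to 7283333 on mm10, plus strand).

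Mmp8, the collagenase stored in neutrophil granules, remained far lower. Its FPKM was 0.0283 (0 to 0.110) at day 0, 1.11 (0.1997 to 2.02) at day 5 and 0.504 (0 to 1.04) at day 15. It was 39.2-fold higher at day 5 than at day 0, but the log2 ratio was 1.04, and both this ratio and the day 5 FPKM stood just above the limits of the call, which was lost with a pseudocount of 5. At day 15 Mmp8 was below an FPKM of 1 in both groups and could not be called. At day 15 the FPKM of Mmp13 was thus about that of Mmp2, while Mmp8 was the lowest of the 10 in every group.

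Mmp2, gelatinase A, degrades type IV collagen and denatured collagen and is made by stromal cells. It stood at 55.0 (28.2 to 81.7) FPKM at day 0, 122 (66.4 to 178) at day 5 and 105 (56.8 to 153) at day 15. The 3 intervals overlap. The log2 ratio to day 0 was 1.14 at day 5 and 0.92 at day 15, and Mmp2 was apart at neither. It was the second most abundant of the 10 in each group.

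Mmp9, gelatinase B, shares these substrates and is known as a product of neutrophils, macrophages and migrating epithelium. Its FPKM was 0.176 (0 to 0.369) at day 0, 8.30 (4.19 to 12.4) at day 5 and 3.59 (1.57 to 5.60) at day 15. Both injured intervals lie above the uninjured one and overlap each other. Mmp9 was 47.1-fold higher at day 5 and 20.3-fold higher at day 15 than at day 0, and the nearest bounds differ by 11.3-fold and 4.25-fold. The log2 ratio was 2.98 at day 5 and 1.96 at day 15. At day 15 against day 5 the log2 ratio was -1.02, the lowest of the 10, and not apart.

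Mmp3, stromelysin 1, degrades proteoglycans, laminin and fibronectin and activates other metalloproteinases. It had the highest FPKM of the 10 in each group, with 63.4 (29.6 to 97.2) at day 0, 338 (167 to 509) at day 5 and 177 (91.7 to 262) at day 15. It was 5.33-fold higher and apart at day 5, with a log2 ratio of 2.40. At day 15 it was 2.79-fold above day 0 with a log2 ratio of 1.46, but the lower bound of 91.7 at day 15 fell just under the upper bound of 97.2 at day 0, so it was not apart. With groups scaled to a common upper quartile the intervals of Mmp3 at day 15 and day 0 no longer overlapped.

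Mmp10, stromelysin 2, is closely related to Mmp3 and is best known in epithelial cells at wound edges. Its FPKM was 0.501 (0 to 1.14) at day 0, 1.81 (0.106 to 3.51) at day 5 and 1.81 (0.223 to 3.40) at day 15. The injured values are nearly equal and all 3 intervals overlap. Its log2 ratio of 0.90 at day 5 against day 0 was the smallest of the 10. Of the 50-base windows of the longest annotated transcript of Mmp10, 8.37% were also found in Mmp3, and 8.39% of those of Mmp3 were found in Mmp10 or in Gm15244, so that a small part of their reads could be assigned to either gene. Given the far higher FPKM of Mmp3, the low values of Mmp10 are the less certain.

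Mmp11, stromelysin 3, is a product of fibroblasts that is activated inside the cell by furin-type convertases. It stood at 1.62 (0 to 3.66) FPKM at day 0, 6.86 (1.22 to 12.5) at day 5 and 5.45 (1.10 to 9.81) at day 15. The log2 ratios to day 0 were 1.59 and 1.30, with overlapping intervals.

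Mmp12, the metalloelastase of macrophages, cuts elastin and other matrix proteins. Its FPKM was 0.650 (0.0752 to 1.23) at day 0, 12.4 (6.88 to 17.9) at day 5 and 21.9 (12.1 to 31.7) at day 15. Both injured intervals lie above the uninjured one and overlap each other. Mmp12 was 19.0-fold higher at day 5 and 33.7-fold higher at day 15, with log2 ratios of 3.02 and 3.79, and the nearest bounds differ by 5.62-fold and 9.91-fold. By log2 ratio it stood at place 132 of the loci compared at day 5 and at place 41 at day 15. It was 1.77-fold higher at day 15 than at day 5, not apart.

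Mmp14, a membrane-anchored collagenase, activates the proenzyme of Mmp2 at the cell surface with the help of Timp2. It was at 19.2 (10.004 to 28.3) FPKM at day 0, 66.3 (37.0 to 95.6) at day 5 and 40.2 (21.3 to 59.2) at day 15. It was 3.46-fold higher and apart at day 5, with a log2 ratio of 1.74 and nearest bounds only 1.31-fold from each other. At day 15 it was 2.0995-fold above day 0 and not apart.

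Mmp19, a secreted protease of basement membrane proteins, had 2.66 (0 to 8.78) FPKM at day 0, 11.2 (0 to 22.9) at day 5 and 7.01 (0 to 16.5) at day 15. These intervals were wide, reached 0 in each group and overlapped throughout. Its log2 ratio at day 5 was 1.74, as for Mmp14, without being apart. The locus of Mmp19 spans 3.10 times the annotated gene and holds 5 other annotated genes, and Gm47093 and Tmem198b overlap Mmp19 on the other strand. The strandedness of the libraries is not given in the sources used here, so the Mmp19 value is uncertain. The loci of the other 9 genes hold no other annotated gene.

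**Figure D2:**
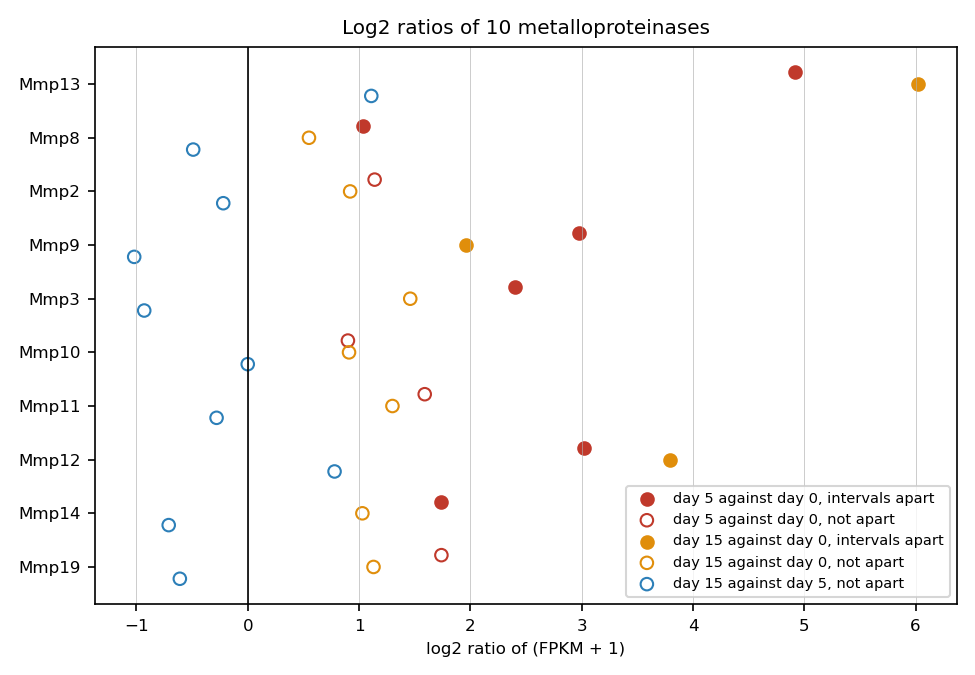
Log2 ratios of (FPKM + 1) for the 10 metalloproteinases in 3 comparisons, filled where the authors' intervals were apart under the call and open where not. All ratios to day 0 lie right of 0, and 6 points at day 5 and 3 at day 15 are filled. The ratios of day 15 against day 5 lie right of 0 for Mmp13 and Mmp12, at 0.00 for Mmp10 and left of it for the other 7.

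Levels differed widely among the 10 genes. Summed over the 10, FPKM was 143.7 at day 0, 614 at day 5 and 462 at day 15. Mmp2 and Mmp3 together made up 82.4% of that sum at day 0, 74.9% at day 5 and 60.9% at day 15. Mmp13 had a share of 0.384% at day 0, 7.47% at day 5 and 21.6% at day 15, and Mmp12 one of 0.453%, 2.02% and 4.74%. An FPKM of at least 1 was reached by 5 of the 10 genes at day 0, by 10 at day 5 and by 9 at day 15. Ordered by FPKM, the uninjured cornea had Mmp3, Mmp2, Mmp14, Mmp19, Mmp11, Mmp12, Mmp13, Mmp10, Mmp9 and Mmp8 from high to low. Of the 9 neighbouring pairs in that order, 8 had overlapping intervals, and the break was between Mmp14 and Mmp19. At day 5 the break was between Mmp13, in the fourth place, and Mmp12. At day 15 Mmp13 was in the third place and all 9 neighbouring pairs overlapped.

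**Figure D3:**
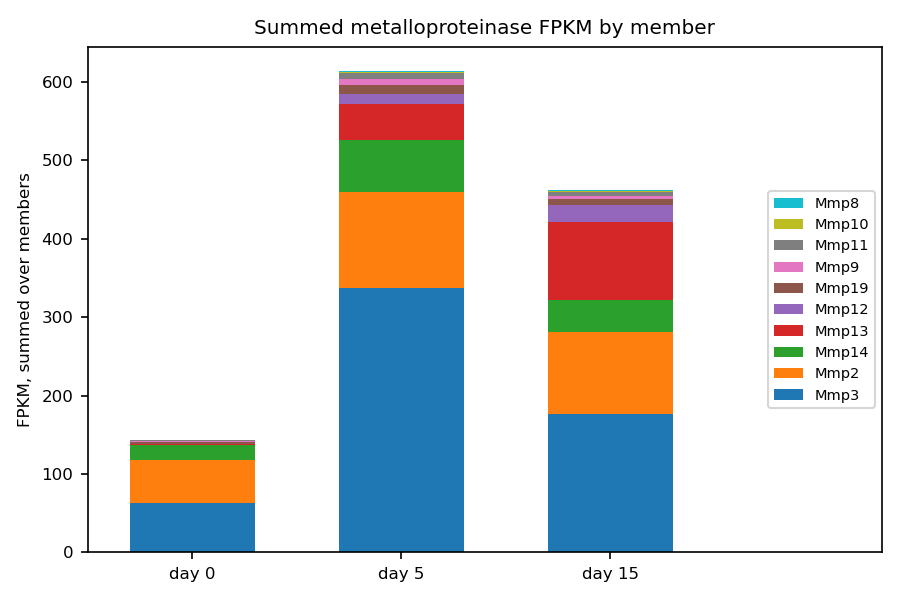
Bars stack the FPKM of the 10 metalloproteinases at day 0, day 5 and day 15, with each colour 1 gene. The sum is 143.7, 614 and 462, most of it Mmp3 and Mmp2, and the Mmp13 segment is thickest at day 15.

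**Figure D4:**
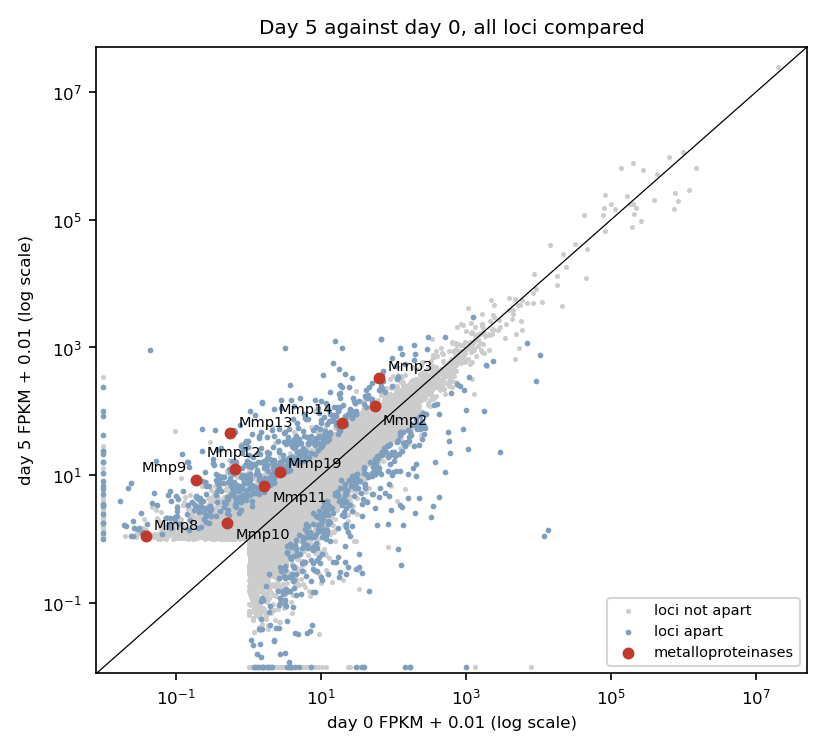
FPKM at day 5 (vertical) against day 0 (horizontal) for the 15576 loci compared, both with 0.01 added and on log scales, with the line of equal values. Loci called apart are blue and the 10 metalloproteinases are red. All 10 lie above the line, with Mmp13 and Mmp9 farthest from it among those above an FPKM of 5 at day 5.

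The authors' intervals were wide, for the 10 genes as for other loci. The half-width of the authors' interval at day 5 was between 44.2% (Mmp14) and 104% (Mmp19) of the FPKM. At day 0 it was 47.8% for Mmp14 and 289% for Mmp8. The median half-width of all loci that reached an FPKM of 5 was between 52.3% (day 15) and 54.3% (day 0). At day 5 that median was 52.9%. Mmp2, Mmp3, Mmp9, Mmp12, Mmp13 and Mmp14 were below it at day 5, and Mmp8, Mmp10, Mmp11 and Mmp19 above it. Mmp8 and Mmp10 did not reach an FPKM of 5 at day 5, so that median does not describe loci at their level.

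Mmp13, Mmp12, Mmp3, Mmp10 and Mmp8 belong to a cluster of 10 metalloproteinase genes within 427 kb of chromosome 9 (7272514 to 7699585 on mm10). In the order of the chromosome the log2 ratio at day 5 was 4.92 for Mmp13, 3.02 for Mmp12, 0.11 for Mmp1b, 2.40 for Mmp3, -0.01 for Mmp1a, 0.90 for Mmp10, 1.04 for Mmp8, 0.81 for Mmp27, -0.03 for Mmp20 and 0.03 for Mmp7. Genes with large ratios thus stood beside genes with hardly any transcript. Mmp1a and Mmp1b, the mouse relatives of human interstitial collagenase, reached at most 0.0132 and 0.0793 FPKM in any group. Mmp20, the enamel protease, was listed at 0 at days 5 and 15. Mmp7, matrilysin, had 0.395 (0 to 1.01) FPKM at day 15 and less at the earlier times.

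**Figure D5:**
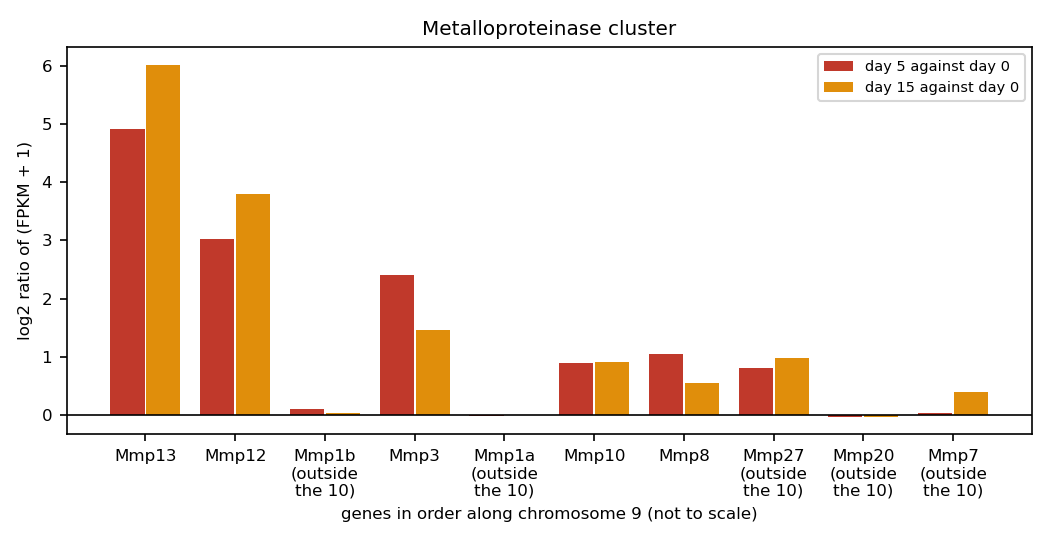
Log2 ratios of (FPKM + 1) at day 5 and day 15, each against day 0, for the 10 genes of the chromosome 9 cluster in their order along the chromosome, not to scale. Mmp13 and Mmp12 at one end have the highest ratios, up to 6.02, and Mmp3 stands out between Mmp1b and Mmp1a, which are near 0.

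The promoters of the clustered genes are shown because these neighbours differ so widely in transcript level. RefSeq promoter sequences (GRCm38.p6, the 250 bases before and 50 after a start site) were found for 7 of the 10 genes, all but Mmp2, Mmp9 and Mmp19. The last 100 bases before the start site follow, 5′ to 3′ on the plus strand. Capitals mark TGANTCA, the binding motif of AP-1 (dimers of Fos and Jun proteins), which reads the same on both strands, and TATAAA, the core of a TATA box. Mmp8 is given as the clustered member with no TGANTCA in its promoter and Mmp1a as a hardly detected neighbour of Mmp3.
Mmp13 (chr9:7272414-7272513): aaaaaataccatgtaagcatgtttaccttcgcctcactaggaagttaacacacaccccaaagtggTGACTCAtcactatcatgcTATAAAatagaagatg
Mmp12 (chr9:7347274-7347373): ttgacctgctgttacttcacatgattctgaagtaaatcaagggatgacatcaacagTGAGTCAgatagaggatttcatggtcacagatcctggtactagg
Mmp3 (chr9:7445722-7445821): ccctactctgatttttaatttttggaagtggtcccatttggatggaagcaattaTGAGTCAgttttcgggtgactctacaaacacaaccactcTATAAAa
Mmp10 (chr9:7502242-7502341): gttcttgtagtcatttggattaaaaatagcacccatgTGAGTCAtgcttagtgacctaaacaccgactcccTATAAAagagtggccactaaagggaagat
Mmp8 (chr9:7558329-7558428): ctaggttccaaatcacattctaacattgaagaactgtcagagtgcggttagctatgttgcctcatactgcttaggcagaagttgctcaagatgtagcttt
Mmp1a (chr9:7464041-7464140): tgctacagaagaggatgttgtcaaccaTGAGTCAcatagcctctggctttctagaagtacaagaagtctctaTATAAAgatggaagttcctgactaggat

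TGANTCA began 35 bases before the annotated start of Mmp13, 44 before that of Mmp12, 46 before that of Mmp3 and 63 before that of Mmp10. For Mmp12 this is the start that matches the deposited locus, and the promoter of its other annotated start held no TGANTCA. It was thus present in 4 of the 7 members with a promoter, and in 7.81% of 32851 mouse promoters of the same length. The 4 genes include the 2 with the highest ratios, Mmp13 and Mmp12, and also Mmp10, which was not apart at any time. Among the 10 clustered genes 8 held it, including the hardly detected Mmp1a, Mmp1b, Mmp20 and Mmp7. TATAAA was found on either strand in 5 of the 7 members and in 13.6% of all promoters. In Mmp12 it began after the annotated start, and in Mmp8 it lay on the minus strand and ran past the start. AGGAAG, a motif of ETS factors of the PEA3 type, was found on either strand in 5 of the 7 members and in 35.4% of all promoters, and in Mmp13 it began 62 and 109 bases before the start. In Mmp12 it lay in the promoter of the other start. These motifs do not overlap each other in the sequences shown. A match describes these letters and does not show binding.

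The rest of the family, 13 genes in a list chosen with earlier results of these data known, had smaller median ratios, but not in every gene. None of them was apart at day 5, the median log2 ratio being 0.10, and at day 15 Mmp15 was higher and apart and Mmp28 lower and apart, the median being 0.04. Mmp15, a membrane-type enzyme, had 3.43 (1.47 to 5.38) FPKM at day 0, 9.76 (5.18 to 14.3) at day 5 and 10.7 (5.85 to 15.6) at day 15, and was higher and apart at day 15. Its log2 ratio was 1.28 at day 5 and 1.40 at day 15, above those of Mmp2, Mmp8 and Mmp10 at both times. Mmp28, epilysin, a protease of epithelia, was the most abundant of the 13 at day 0, with 14.0 (6.06 to 22.04) FPKM there, 3.51 (0.789 to 6.22) at day 5 and 2.91 (0.436 to 5.38) at day 15. It was 4.83-fold lower and apart at day 15. Mmp23 stood at 2.76, 7.76 and 6.20 FPKM at days 0, 5 and 15, Mmp16 at 1.88, 2.45 and 1.68, and Mmp27 at 0.165, 1.04 and 1.30, and none of these 3 was apart. The other 8 were below an FPKM of 1 in each group, so they could not be called apart. Their log2 ratios are held small by the scale. The list medians of 0.10 and 0.04 are the values of Mmp24 and Mmp1b, both among these 8. The smaller medians of the list are thus not a measure of its expressed genes.

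Among 6 inhibitors, 0 were higher and apart and 1, A2m, was lower and apart in both comparisons with day 0. Here and in the lists below, counts are over all genes with usable estimates, also those below an FPKM of 1. Counted that way, 3.23% of all loci were apart from day 0 in either direction at day 5 and 2.51% at day 15. The share between the injured groups was 0.403%. A2m, the plasma-type inhibitor alpha-2-macroglobulin that traps proteases, had 347 (146 to 548) FPKM at day 0, 3.28 (1.53 to 5.04) at day 5 and 8.27 (4.35 to 12.2) at day 15. Timp1, the inducible tissue inhibitor, had 2.13 (0 to 9.52) FPKM at day 0, 58.2 (4.29 to 112) at day 5 and 37.0 (0 to 76.7) at day 15. The log2 ratio of 4.24 at day 5 came with overlapping intervals, on a locus that spans 15.8 times the annotated gene and also holds Araf and Syn1. Timp2, which binds Mmp2 and Mmp14, stood at 58.3, 103 and 91.9 FPKM at days 0, 5 and 15, and Timp3, bound to the matrix, at 83.5, 52.9 and 56.9, neither apart. The Timp3 locus spans 9.71 times the annotated gene and holds 6 other annotated genes, among them Fbxo7 and Syn3, so its value is uncertain as well. Reck, a membrane-anchored inhibitor, was at 6.92, 5.60 and 5.13 FPKM and Timp4, whose locus spans 14.3 times the annotated gene and also holds Syn2, below 0.1 in each group.

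Of 9 activators whose row in the table named no other gene, 3 were higher and apart at day 5 and 1 at day 15. None was lower and apart against day 0. Of all loci, with no minimum FPKM, 3.23% and 2.51% were apart at these times. Plaur, the urokinase receptor, had 2.21 (0 to 4.48) FPKM at day 0, 107 (57.1 to 158) at day 5 and 30.7 (12.9 to 48.6) at day 15, and was higher and apart at both times. Plau, urokinase, stood at 21.96, 62.0 and 53.6 FPKM at days 0, 5 and 15 and Plat, tissue plasminogen activator, at 17.8, 60.7 and 21.1, both apart at day 5. At day 15 against day 5 Plaur and Plat were lower and apart, where 0.403% of all loci were apart. Plg, Elane and Ctsg were listed at 0 in each group and could not be called.

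Of 15 matrix proteins that metalloproteinases can cut, 4 were higher and 1 lower and apart at day 5. At day 15, 5 were higher and 1 lower and apart. Median log2 ratios were 1.15 and 1.08. Of all loci, with no minimum FPKM, 3.23% and 2.51% were apart at these times. Eln, elastin, a substrate of Mmp12, had 0.961 (0.201 to 1.72) FPKM at day 0, 35.0 (20.7 to 49.3) at day 5 and 8.65 (4.03 to 13.3) at day 15. It was apart from day 0 at both times and lower and apart at day 15 against day 5. Col3a1, a fibrillar collagen, stood at 67.7, 1351 and 1019 FPKM at days 0, 5 and 15, and Tnc, a wound matrix glycoprotein, at 12.7, 108 and 115, both apart from day 0 at both times. Lamb3, a laminin chain of the epithelial basement membrane, was apart at day 15 only, with 49.996 FPKM there and 15.8 at day 0. Kera, the keratan sulfate proteoglycan keratocan, was lower and apart at both times, with 11.2 FPKM at day 5 and 16.2 at day 15.

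Of 11 genes listed as regulators of metalloproteinase transcription, 6 were higher and apart at day 5 (Il1b, Il6, Osm, Fos, Fosb and Jun). At day 15, 3 were (Il1b, Fos and Fosb), and 0 were lower and apart against day 0 at either time. Median log2 ratios of the 11 were 1.39 and 0.58. Of all loci, with no minimum FPKM, 3.23% and 2.51% were apart at these times. Fos stood at 29.3 (14.9 to 43.6) FPKM at day 0, 136 (73.3 to 198) at day 5 and 91.1 (53.9 to 128) at day 15. Fosb, its relative, was at 2.62, 52.9 and 18.2 FPKM and Jun, their partner in AP-1, at 76.4, 202 and 115. The cytokine Il1b was at 1.04, 102 and 17.4 FPKM at days 0, 5 and 15 and Osm at 0.0117, 6.30 and 0.838. Il6 was listed at 0 at day 0 with an interval of no width and had 6.76 (0.859 to 12.7) FPKM at day 5. All 11 had a lower FPKM at day 15 than at day 5, and Il1b, Osm and Fosb were lower and apart. Of the 10 metalloproteinases 7 were also lower in value and 3 higher, none of them apart. The part of these genes in the metalloproteinase levels was not tested.

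Markers of cell types that can make metalloproteinases differed between the same groups. For the counts below, the share of all loci apart from day 0, with no minimum FPKM, was 3.23% at day 5 and 2.51% at day 15. Of 10 neutrophil markers, 5 were higher and apart at day 5 (S100a8, S100a9, Ltf, Cxcr2 and Csf3r) and 4 at day 15, all of these but S100a9. Their FPKM summed to 37.8 at day 0, 1648 at day 5 and 863 at day 15, most of it Ltf, which glands also express. Cxcr2, a neutrophil chemokine receptor, stood at 0.451, 9.54 and 2.99 FPKM at days 0, 5 and 15. All 10 neutrophil markers had a lower FPKM at day 15 than at day 5, and 1, S100a9, was lower and apart. Mmp25, a member of the rest of the family, is also on the neutrophil list, as Kera is on both the matrix and the keratocyte lists. The granule genes Mpo, Ngp and Camp were at or near 0, with at most 0.818 FPKM. Of 11 macrophage markers, 4 were higher and apart at day 5 (Cd14, Lyz2, Mrc1 and C1qb) and 6 at day 15, these 4 with Emr1 and Msr1. Their FPKM summed to 168 at day 0, 689 at day 5 and 1079.6 at day 15. Emr1, the F4/80 antigen, stood at 1.53, 5.08 and 9.07 FPKM at days 0, 5 and 15, not apart between the injured groups. Cd14, the lipopolysaccharide co-receptor, stood at 4.12, 75.1 and 19.9 FPKM and was the 1 macrophage marker apart between the injured groups, with a log2 ratio of -1.87 at day 15 against day 5. Cd163 was not apart, with 3.20, 3.53 and 2.41 FPKM.

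Of 9 keratocyte and fibroblast markers, 4 were higher and apart at day 5 (Thy1, Vim, Acta2 and Postn) and 2 lower and apart (Kera and Aldh3a1), and at day 15 3 were higher (Thy1, Acta2 and Postn) and 1, Kera, lower and apart. Their sum, which Aldh3a1 and Dcn dominate, was 13487 at day 0, 2534 at day 5 and 3775 FPKM at day 15. Aldh3a1 alone had 9149.9 FPKM in the uninjured group, then 303 and 866 in the injured groups. Most of the fall in the sum was thus that of this gene. Being the main soluble protein gene of the cornea, Aldh3a1 does not mark keratocytes or fibroblasts alone. Neither the sum nor the Aldh3a1 call is therefore a measure of these cells. Of 8 corneal epithelial markers with a usable day 0 value, 1 (Clu) was higher and 2 (Dsg1a and Upk1b) were lower and apart at day 5, and at day 15 Clu was higher and Dsg1a lower and apart. The sum of the epithelial list, with Krt12 at 0 for day 0, was 6573, 7147 and 8902 FPKM at days 0, 5 and 15. That 0 is not a measured value, so the day 0 sum leaves Krt12 out. The sums therefore do not show whether the list rose after injury. Krt12 itself was at 6.81 FPKM at day 5 and 9.67 at day 15. Its day 0 status was HIDATA, which Cufflinks gives to a locus with too many fragments to estimate. A low day 0 level of Krt12 is thus not to be read from that 0, and its fold is unknown. The endothelial markers Pecam1, Cdh5, Tek, Emcn and Vwf, 5 of 7, were higher and apart at both times, with a sum of 15.9 at day 0, 64.2 at day 5 and 66.9 FPKM at day 15. Of 8 lens, muscle and photoreceptor markers 3 were lower and apart at day 5 (the lens crystallins Cryaa, Cryba1 and Crybb2) and 2 at day 15 (the muscle genes Myl1 and Ckm), with sums of 784, 320.1 and 325 FPKM. Beside these counts, with no minimum FPKM, 3.23% of all loci were apart from day 0 at day 5 and 2.51% at day 15. Whether cell content differed, and whether it carries part of the metalloproteinase differences, was not tested.

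The loci most like the 3 metalloproteinases with the largest ratios were sought by the distance between their log2 ratios at day 5 and day 15 to day 0, over the 3 pooled groups, among 6728 loci named for 1 gene with FPKM of at least 10 in any group. Nearest to Mmp13 were Serpinb2, a serpin that inhibits urokinase, at a distance of 0.62, then Gabrp, a GABA receptor subunit (0.66), and Serpinb3a, a protease inhibitor (0.91). Serpinb2 had 2.77 at day 0, 153 at day 5 and 180.3 FPKM at day 15. Nearest to Mmp12 were Rgs1, a regulator of G protein signalling (0.21), Stmn2, a stathmin of neurons (0.29), and Casp1, the inflammasome protease (0.39). Casp1 stood at 1.14, 19.5 and 35.6 FPKM. Nearest to Mmp9 were Skap1, an adaptor of T cells (0.084), Krt18, a keratin of simple epithelia (0.092), and Cdh3, P-cadherin (0.11). With 3 pooled points each, many loci lie close by, most of all for the smaller ratios of Mmp9.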

How the data were processed

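The authors deposited 1 gene table with an FPKM per group, pooled over its samples, and the bounds of an interval for it, per the file headers. Cuffdiff (without a version), Cufflinks 2.2.1, Bowtie2 2.2.6, TopHat2 2.1.0 and mm10 are named in the submitters' processing notes. Their settings are not given in the sources used here. The table had 0 columns of samples outside the series.

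The call described with the results was applied to all loci in Python 3.11.15 (numpy 2.4.6, pandas 2.3.3, matplotlib 3.10.9) and tested on simulated data. The members and gene lists were chosen with earlier results of these data known. The text names the 10 members, listed genes called apart in any comparison, Timp1 to Timp4, Reck, and other metalloproteinases with FPKM of at least 1, apart from 1 listed gene that is not reported here. Listed genes whose row named a further gene were left out (Furin, Col7a1, Cd68 and Pdgfra), and so was Ly6g, which had no row. Of several loci with 1 symbol, the one with the highest mean FPKM was used. Coordinates are 1-based: the deposited start plus 1 equalled the RefSeq start (GRCm38.p6) at 42.2% of 22105 loci named for 1 gene, and the start itself at 2.27%. Annotated spans and overlapping genes are from GENCODE M21 (GRCm38). Other pseudocounts, minimum levels, log2 limits and scalings were tried, as were calls without the intervals and the summing of loci.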

Additional observations from a re-analysis of the deposited data

How the results depend on the processing

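Against day 0, 6 metalloproteinases were apart at day 5 and 3 at day 15, and 0 were apart between the injured groups. Without the intervals the counts were 9, 7 and 2, where 21.9%, 17.8% and 5.97% of all loci were called, and the 2 were Mmp13, higher, and Mmp9, lower at day 15. Under the other 9 alternatives the counts ranged from 4 to 6 and from 2 to 4, and the third was 0, where 3.23% to 7.38%, 2.5% to 5.81% and 0.361% to 1.14% of all loci were called. Mmp8 at day 5 and Mmp9 at day 15 lost their call with a pseudocount of 5, with FPKM of at least 5 and with a log2 limit of 2, and Mmp14 at day 5 with the last. Mmp3 at day 15 gained one with upper quartile scaling. Of 30 log2 ratios of members, none changed by more than the interval bounds allow under median scaling, and 6 did with a pseudocount of 0.1, those of Mmp8, Mmp9 and Mmp13 to day 0, where Mmp13 reached 6.14 at day 5 and 7.26 at day 15. Leaving out a replicate was not run, because the groups are pooled. No paired analysis was possible because the columns carry no replicate numbers. Depth limits the lowest genes most, and is unknown.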
